A study of Mus musculus with 3 samples.

Results

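The 38 genes described here drive and mark the cell division cycle: 12 act mainly in G1, 14 in DNA replication and the supply of its building blocks, and 12 in mitosis. They were taken by name from a fixed list of 38 symbols, and every probe of each gene on the array was read, 56 probes in all. After a filter on dim or irregular spots, 34 of the 38 genes could be tested, among 20389 genes tested in the whole data set. Both conditions were mouse embryoid bodies at day 10, grown in suspension without LIF, the cytokine that keeps mouse embryonic stem cells undifferentiated. The mutant+CT cells carried Dido3deltaCT, a Dido3 protein truncated at its C terminus, and also overexpressed HADido3CT, the missing terminal region encoded by exon 16. The wild-type cells carried neither. Each of the 3 arrays compared RNA of 1 mutant+CT and 1 wild-type biological replicate, labelled with the dyes Cy3 and Cy5. No sample here held the truncation alone or the added region alone, so the parts that the 2 alterations play cannot be told apart, and the number of cell clones behind each condition is not given in the sources used here.

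Passage through G1 is driven by D-type cyclins with Cdk4 and Cdk6, then by E-type cyclins with Cdk2, which inactivate the retinoblastoma protein and free E2F factors to switch on replication genes. Origins of replication are licensed by loading the Mcm helicase, fired in S phase, and kept from firing again until after mitosis, which cyclin B with Cdk1 sets in motion. Pluripotent mouse cells are known for a short G1, high cyclin E, and low levels of D-type cyclins and of G1 inhibitors, a state that changes as they differentiate.

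Each value below is a normalised intensity or a log2 ratio of mutant+CT over wild type, where 1 stands for 2-fold. Intensities are in arbitrary units, comparable between the 2 conditions for 1 probe on 1 array but not between probes. They were normalised within arrays only. Statements below on overlap or rank of intensities across arrays therefore also hold differences in brightness between arrays. Mutant+CT RNA was in Cy3 on replicates 1 and 3 and in Cy5 on replicate 2, and no member had a saturated spot. Spots well above background made up 69.0% to 78.5% of the arrays in mutant+CT and 68.1% to 76.4% in wild type. The ratios of replicates 1 and 3 correlated across all genes with r = 0.54, those of replicates 2 and 3 with r = 0.38 and those of replicates 1 and 2 with r = 0.18, where genes are not independent points. Over the 34 tested members r was 0.88, -0.32 and -0.53 for the same pairs of arrays. Without Cdk1 and Aurkb, whose ratios turned with the dyes, r over 32 members was 0.83, 0.22 and 0.026. The negative values thus rested on these 2 genes. The 4 probes of Dido1, the altered gene, had mean log2 ratios between -2.39 and 3.53. Its brightest probe, the kind that stands for a gene here, gave -0.01, 1.58 and 0.74 (mean 0.77 ± 0.80, limma adjusted p = 0.360 over all kept probes). The probe with the highest ratio, for the Dido1 transcript NM_177852 (chr2:180405604-180405663, mm9, minus strand), read 955, 1121 and 1763 in mutant+CT, against 89.3, 97.2 and 140 in wild type. Its log2 ratio was 3.53 ± 0.12 (SD, n = 3, limma adjusted p = 0.0436 over all kept probes). In that fit over probes, 109 of 26317 (0.414%) had an adjusted p under 0.05.

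None of the 34 members passed limma's test at an adjusted p under 0.05, where 0% of the 20389 genes passed. At an unadjusted p under 0.05 there were 5 of 34 members, 2 higher and 3 lower in mutant+CT, beside 15.8% of all genes (9.05% higher and 6.7% lower). Higher on every array were 5 members (14.7%), beside 20.3% of all genes, and lower on every array were 7 (20.6%), beside 17.4%. No member was at least 2-fold apart on every array, as 2.89% of all genes were. The mean log2 ratio lay within 0.5 of 0 for 24 of 34 members (70.6%), beside 70.2% of all genes. The 95% confidence interval of the ratio lay inside a 2-fold change in either direction for 17 of 34 members (50%), beside 49.8% of all genes. In these counts the cell cycle genes stood near the background of the whole array.

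**Figure D1:**
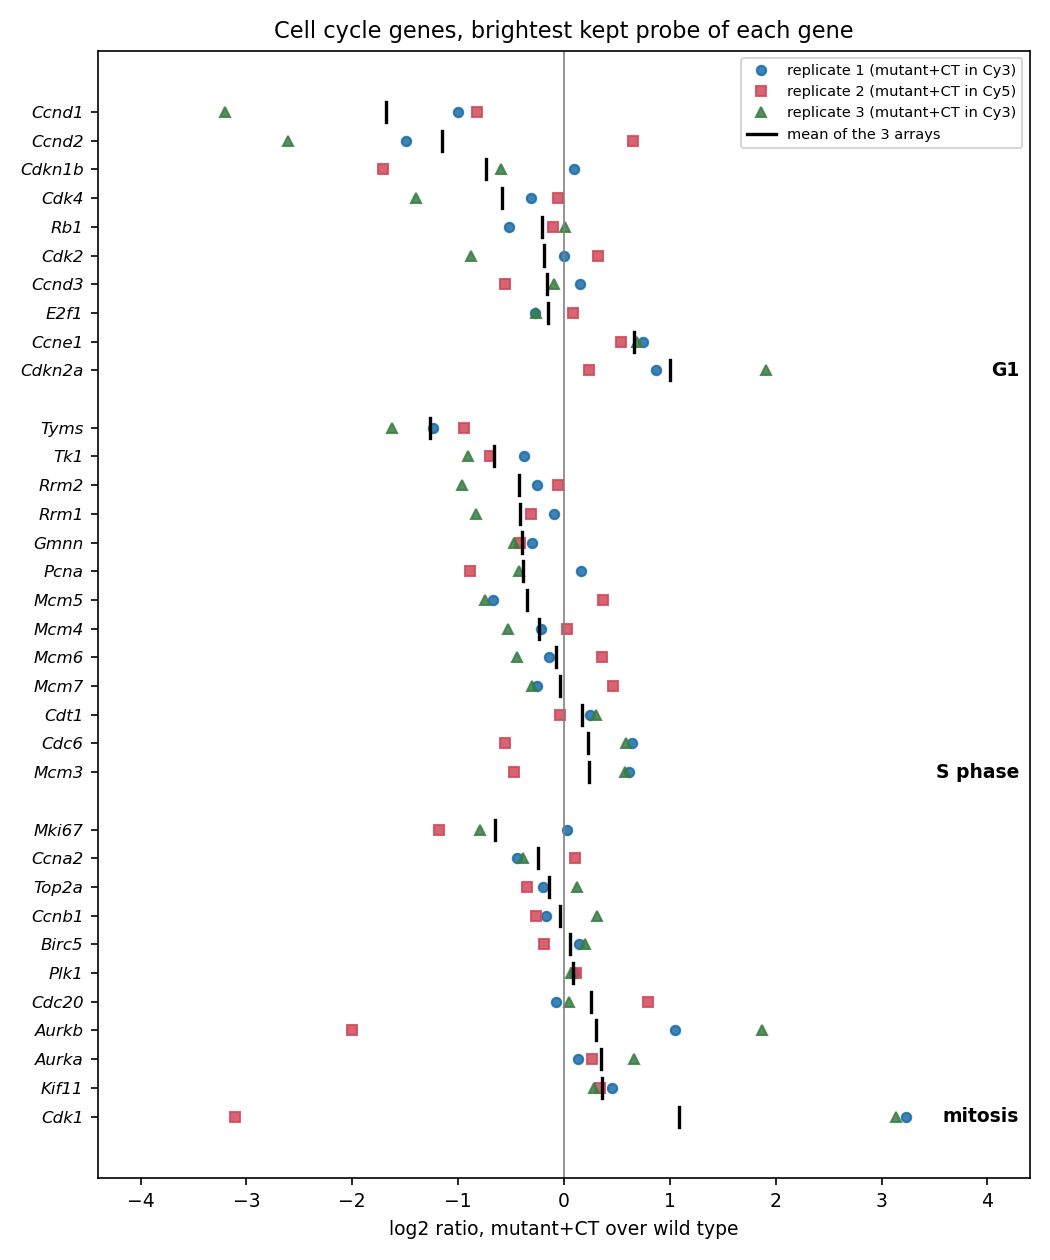
Log2 ratio of mutant+CT over wild type (x axis) for the 34 tested cell cycle genes, grouped by phase and ordered by mean, 1 point per array and a bar at the mean of the 3 arrays. Tyms and Ccnd1 have all 3 points below 0 and Ccne1 and Cdkn2a all 3 above it, while the points of Cdk1 lie at 3.23, -3.11 and 3.13.

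Of the D-type cyclins, which carry growth signals into the cycle, Ccnd1 and Ccnd2 had ratios that differed widely between arrays, while those of Ccnd3 stayed closer to 0. Ccnd1 read 6559, 2518 and 2835 in mutant+CT, against 13123, 4462 and 26174 in wild type on replicates 1 to 3 (probe at chr7:152116202-152116261, mm9). Its intensity was lower in mutant+CT on every array, but the 2 conditions overlapped across arrays, since wild type on replicate 2 lay below mutant+CT on replicate 1. The log2 ratios were -1.0, -0.83 and -3.21, with a mean of -1.68 ± 1.33 (SD, n = 3; 95% interval -2.99 to -0.36; limma adjusted p = 0.229). Ccnd2 read 3580, 9396 and 3508 in mutant+CT, against 10086, 5998 and 21354 in wild type, so it was lower on replicates 1 and 3 and higher on replicate 2 (log2 ratio -1.15 ± 1.65, limma adjusted p = 0.458). Ccnd3 had a log2 ratio of -0.16 ± 0.36 by its brighter probe and 0.17 by the other. Wild type on replicate 3 had the highest intensity of Ccnd1 and Ccnd2 of all 6 RNAs.

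Markers of neural progenitors, like Ccnd1, were lowest in mutant+CT relative to wild type on replicate 3 and nearest to 0 on replicate 2. The ratios of all genes were also widest on replicate 3 and narrowest on replicate 2 (SD 0.77, 0.74 and 1.02 on replicates 1 to 3). The median log2 ratio of the neural markers was -2.34, -0.81 and -3.40 on replicates 1 to 3, with all 9 tested and 6 lower on every array. Their summed intensity, in which the brightest probes weigh most, was 2612, 1797 and 2294 in mutant+CT, against 16825, 3014 and 38586 in wild type. Hes5, a Notch target of neural progenitors, had the smallest p of that list, with 101, 107 and 314 in mutant+CT, against 3460, 508 and 6720 in wild type (log2 ratio -3.92 ± 1.49, limma adjusted p = 0.0900). Naive pluripotency markers had medians of 0.78, 1.39 and 2.63, with 12 of 13 higher on every array. They summed to 190331, 188407 and 597131 in mutant+CT, against 105771, 65571 and 90057 in wild type. Dppa2 of that list read 3295, 2684 and 6772 in mutant+CT, against 1179, 858 and 1903 in wild type (log2 ratio 1.65 ± 0.17, limma adjusted p = 0.0846). A second Dppa2 probe gave 2.00, 0.04 and 2.66 (mean 1.57 ± 1.36, limma adjusted p = 0.236 over all kept probes). These are bulk RNAs, in which fewer cells of a type and less RNA per cell cannot be told apart, and the part of cell composition in the ratios of the cell cycle genes was not tested.

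Cdk4, the kinase partner of the D-type cyclins, was lower in mutant+CT on every array by its brightest probe. That probe read 30198, 30872 and 20881 in mutant+CT, against 37355, 32118 and 55097 in wild type. The log2 ratio was -0.59 ± 0.71 (limma adjusted p = 0.473), and the 3 probes of the gene had means between -0.74 and -0.56. The other 2 probes were higher in mutant+CT on replicate 2, with 0.03 and 0.45, so Cdk4 counts as lower on every array by 1 probe of 3. Only replicate 3, at -1.40, lay more than 1 log2 unit from 0. Cdk6, the other partner kinase, was not well above background on all 3 arrays in either condition and was not tested.

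Ccne1, the cyclin E that activates Cdk2 before S phase, had similar ratios on the 3 arrays. Its intensity was 9970, 12153 and 20116 in mutant+CT, against 5953, 8358 and 12436 in wild type, higher on every array although the ranges overlapped. The log2 ratios of 0.74, 0.54 and 0.69 averaged 0.66 ± 0.11 (1.58-fold; 95% interval 0.12 to 1.20; limma adjusted p = 0.243). The second probe averaged the same 0.66, but from 1.24, -0.05 and 0.79. Cdk2 had a log2 ratio of -0.18 ± 0.62. Ccne2, the other E-type cyclin, was too dim to test, with ratios of 0.37, -0.99 and 0.40.

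Of the cell cycle brakes, Cdkn2a encodes p16Ink4a, which blocks Cdk4 and Cdk6, and p19Arf, which acts through p53. Its brighter probe read 1767, 2318 and 2310 in mutant+CT, against 967, 1965 and 614 in wild type. Mutant+CT was higher on every array, with log2 ratios of 0.87, 0.24 and 1.91 (mean 1.01 ± 0.84, 95% interval 0.07 to 1.94, limma adjusted p = 0.285). A second probe gave 0.45, 0.48 and 1.25. Both probes are assigned to transcripts of both proteins, so these values do not separate p16Ink4a from p19Arf. Cdkn1b, which encodes the Cdk inhibitor p27Kip1, had log2 ratios of 0.09, -1.71 and -0.59 (mean -0.74 ± 0.91, limma adjusted p = 0.441). Rb1, the retinoblastoma protein gene, had a log2 ratio of -0.20 ± 0.28, and E2f1, its target factor, one of -0.15 ± 0.20. For Rb1 and E2f1 the 95% intervals were -0.79 to 0.38 and -0.71 to 0.41, inside a 2-fold change.

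**Figure D2:**
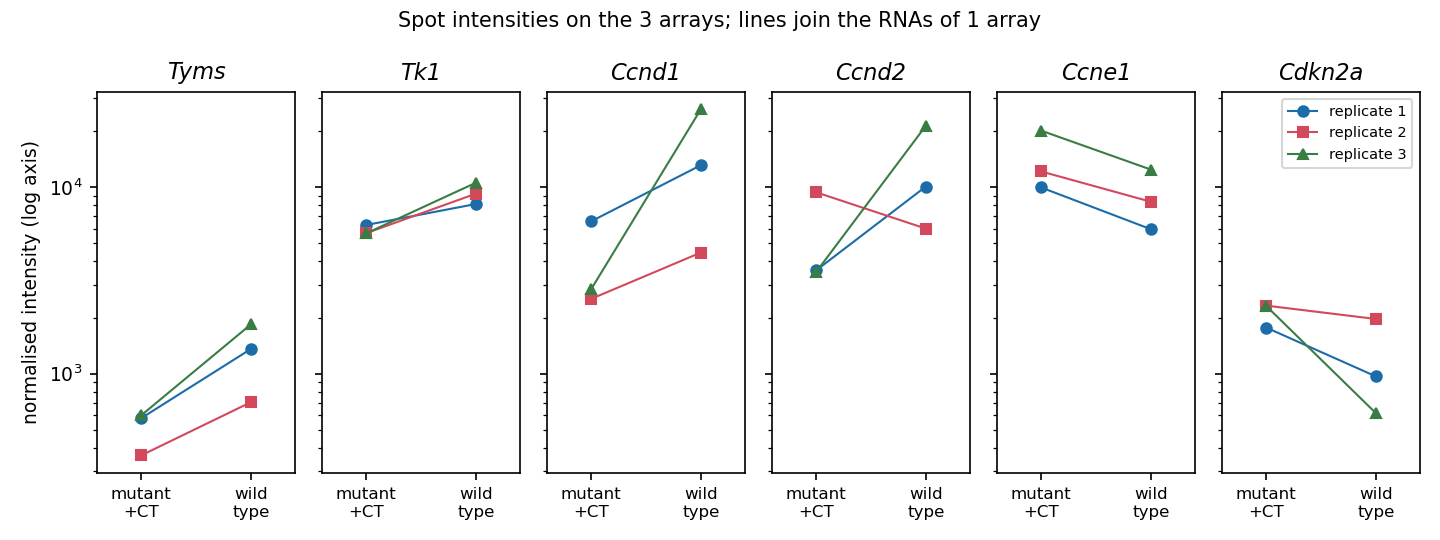
Normalised intensity (log axis) of Tyms, Tk1, Ccnd1, Ccnd2, Ccne1 and Cdkn2a in mutant+CT (left) and wild type (right), with a line joining the 2 RNAs of each array. All 3 lines of Ccnd1 and Tyms slope up towards wild type and all 3 of Ccne1 slope down, with the widest Ccnd1 gap on replicate 3 (2835 against 26174).

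In S phase the genes for making deoxynucleotides stood on 1 side. Tyms, thymidylate synthase, had the smallest p of all members and read 576, 364 and 597 in mutant+CT, against 1355, 703 and 1836 in wild type (probe at chr5:30385578-30385637, mm9, minus strand). Every mutant+CT value lay below every wild-type value. Log2 ratios of -1.23, -0.95 and -1.62 gave a mean of -1.27 ± 0.34, or 2.41-fold lower in mutant+CT (95% interval -1.88 to -0.65; limma adjusted p = 0.120). Tk1, thymidine kinase of the salvage route, read 6270, 5668 and 5652 in mutant+CT, against 8127, 9230 and 10563 in wild type, again without overlap. Its log2 ratio was -0.66 ± 0.27 (95% interval -1.24 to -0.08; limma adjusted p = 0.268), and a second probe gave -0.74. Another Tk1 probe, below the filter, gave -0.03. The ribonucleotide reductase subunits Rrm1 and Rrm2, which make deoxynucleotides from ribonucleotides, were also lower on every array, Rrm1 with log2 ratios of -0.10, -0.32 and -0.83 (limma adjusted p = 0.503) and Rrm2 with -0.25, -0.05 and -0.96 (limma adjusted p = 0.531). These 4 genes were grouped after their values were seen, none passed the test, and the sizes of the Rrm1 and Rrm2 ratios differed widely between arrays.

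The licensing factors gave no such run of ratios. Cdt1, which helps to load the helicase, had a log2 ratio of 0.17 ± 0.18. Cdc6, its loading partner, was read by 2 kept probes that differed by 1.03 log2 units in their mean. The brighter one (chr11:98782986-98783045, mm9) gave 0.64, -0.56 and 0.59, a mean of 0.22 ± 0.68 (limma adjusted p = 0.819), and the other (chr11:98785169-98785228) gave -0.64, -1.26 and -0.51, a mean of -0.80 ± 0.40. The direction of Cdc6 therefore rests on the probe chosen. The first 30 of the 60 bases of each are printed here, with G and C in capitals, because they read the same transcript with opposite mean signs.
Cdc6, brighter probe: tGtaaaGaaCtttGaaGtttaGaaGGatGa
Cdc6, other probe: ttaaGaaCCaGattaaGtttCCataGtGtC

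Gmnn encodes geminin, which holds Cdt1 inactive after origins have fired. Its tested probe read 106, 93.6 and 108 in mutant+CT, against 131, 125 and 150 in wild type, with a log2 ratio of -0.40 ± 0.09 (limma adjusted p = 0.448). That probe lies on the strand opposite to the probe for the geminin messenger NM_020567 by the files' mm9 coordinates, so the value is uncertain as a reading of Gmnn. The NM_020567 probe (chr13:24843715-24843774, mm9, minus strand) gave 1.29 and -1.56 on replicates 1 and 2 and had an outlier spot on replicate 3, so it was not kept. On replicates 1 and 2 alike, the RNA in Cy3 was the brighter one by more than 2-fold, so these ratios turned with the dyes.

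The Mcm helicase subunits lay close to 0 as means. The 5 tested subunits ranged from -0.35 for Mcm5 to 0.24 for Mcm3, and none was on the same side of 0 on every array. Mcm4, Mcm5, Mcm6 and Mcm7 were each lower in mutant+CT on replicates 1 and 3 and higher on replicate 2, while Mcm3 did the opposite. Mcm7, for example, read 17427, 20630 and 13827 in mutant+CT, against 20853, 14960 and 17089 in wild type (log2 ratio -0.03 ± 0.43, 95% interval -0.69 to 0.63, limma adjusted p = 0.973). Since replicate 2 alone had the dyes swapped, dye and replicate cannot be told apart here. Mcm2 had an outlier spot on replicate 2 and was not tested; it gave -0.05 and -0.03 on replicates 1 and 3. Pcna, the sliding clamp of the replication fork, gave 0.16, -0.88 and -0.43 (mean -0.38 ± 0.52, limma adjusted p = 0.590).

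Among the mitotic genes, Kif11, Aurka and Plk1 were higher in mutant+CT on every array, 3 of 11 (27.3%), beside 20.3% of all genes. By its brightest kept probe, none of the 11 was lower on every array, beside 17.4% of all genes. Kif11, the motor that pushes spindle poles apart, read 5216, 5389 and 6261 in mutant+CT, against 3821, 4248 and 5128 in wild type. These values did not overlap, and the log2 ratio was 0.36 ± 0.08 (limma adjusted p = 0.494). Aurka, a kinase of the spindle poles, read 7730, 7594 and 11414 in mutant+CT, against 7072, 6319 and 7236 in wild type. It did not overlap between conditions either, with a log2 ratio of 0.35 ± 0.27 (limma adjusted p = 0.545). Plk1, a kinase of mitotic entry and exit, had ratios of 0.09, 0.11 and 0.06, the narrowest spread of all members (0.09 ± 0.02; 95% interval -0.44 to 0.62; limma adjusted p = 0.900).

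Cyclins and exit factors of mitosis lay near 0. Ccna2, the cyclin of S and G2, had a log2 ratio of -0.24 ± 0.30, and Ccnb1, the cyclin of mitotic entry, one of -0.04 ± 0.31 by its brightest probe, with the 3 probes between -0.04 and 0.27. Ccnb2 had an outlier spot on replicate 1 and gave 0.26 and 0.49 on replicates 2 and 3. Cdc20, which activates the anaphase-promoting complex, had a log2 ratio of 0.25 ± 0.47, of which replicate 2 gave 0.79. Birc5, survivin of the chromosomal passenger complex, had 0.05 ± 0.21, and Top2a, the topoisomerase that untangles chromosomes, -0.14 ± 0.24. The proliferation marker Mki67 read 18888, 12994 and 14655 in mutant+CT, against 18542, 29496 and 25353 in wild type. Its log2 ratios of 0.03, -1.18 and -0.79 averaged -0.65 ± 0.62 (limma adjusted p = 0.390). The second Mki67 probe gave -0.12, -0.77 and -1.12, a mean of -0.67, and was lower on every array. By both probes the lower intensity came mainly from replicates 2 and 3. Mki67 is thus not counted as lower on every array only because its brighter probe stands for the gene.

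**Figure D3:**
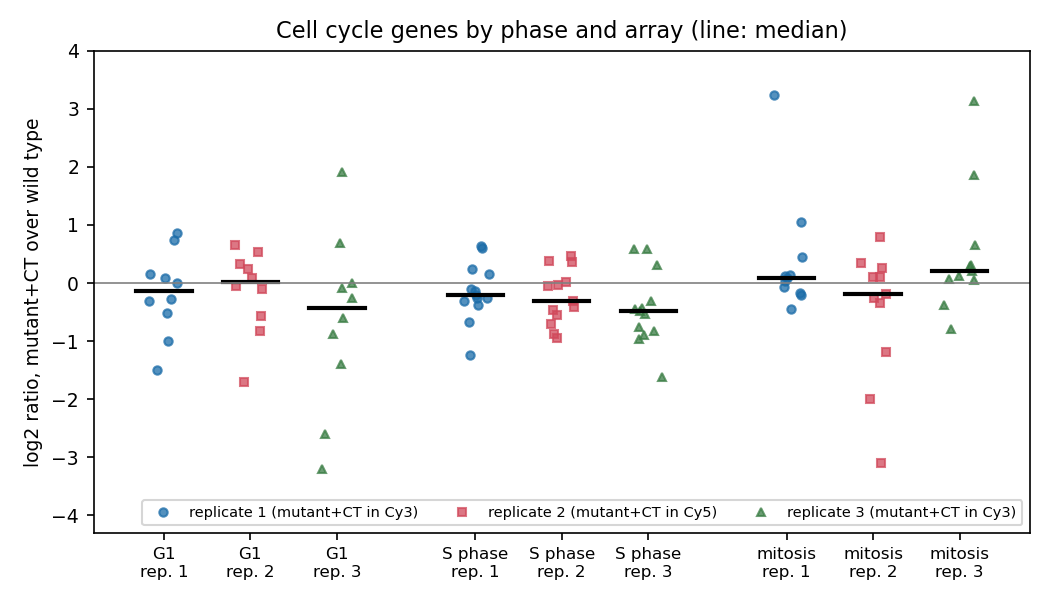
Log2 ratios of the tested G1, S phase and mitotic genes on each array (1 point per gene, line at the median). The S phase medians are -0.21, -0.32 and -0.48, all below 0, while the mitotic medians are 0.09, -0.18 and 0.20.

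Set side by side, the phases overlapped in the ratios of their genes, and the difference between their medians was not tested. The median log2 ratio was -0.19 for the 10 tested G1 genes, -0.35 for the 13 S phase genes and 0.09 for the 11 mitotic genes, beside -0.0024 for all genes. By array, the G1 median was -0.14, 0.01 and -0.43, the S phase median -0.21, -0.32 and -0.48, and the mitotic median 0.09, -0.18 and 0.20. By the brightest kept probe of each gene, 2 of 10 G1, 5 of 13 S phase and 0 of 11 mitotic genes were lower on every array. Higher on every array were 2, 0 and 3. Of all genes, 17.4% were lower and 20.3% higher on every array, as given above. Single genes ranged from -1.68 to 1.01 in G1, from -1.27 to 0.24 in S phase and from -0.65 to 1.09 in mitosis. Without the Cdk1 and Aurkb probes described next, the mitotic median was 0.07 and the highest mitotic ratio was 0.36, that of Kif11. Without Gmnn, whose tested probe is uncertain, 4 of 12 S phase genes were lower on every array and their median was -0.29.

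Cdk1, the kinase that drives mitotic entry, and Aurkb, the kinase of the chromosomal passenger complex, had ratios that turned with the dyes. The brightest Cdk1 probe read 8575, 1982 and 17926 in mutant+CT, against 912, 17067 and 2043 in wild type, so the Cy3 RNA was the brighter one on every array. Log2 ratios were 3.23, -3.11 and 3.13 (mean 1.09 ± 3.63, limma adjusted p = 0.774). A second Cdk1 probe, sharing 41 bases with it, gave 1.71, -2.85 and 3.59. The third Cdk1 probe (chr10:68799513-68799572, mm9, minus strand) gave 0.22, -0.03 and 0.50, with a mean of 0.23. Aurkb read 216, 77.9 and 431 in mutant+CT, against 104, 313 and 118 in wild type, with log2 ratios of 1.05, -2.00 and 1.87 (mean 0.30 ± 2.04, limma adjusted p = 0.906).

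These 3 probes were the only ones of the 48 kept member probes at least 2-fold brighter in Cy3 on every array, beside 221 of 26317 kept probes (0.84%). They are called dye-following here. All 3 are poor in G and C: 18.3% in both Cdk1 probes and 20% in the Aurkb probe, against 45% in the third Cdk1 probe and a median of 43.3% over all kept probes. Of all kept probes under 30% G and C, 54 of 328 (16.5%) were at least 2-fold brighter in Cy3 on every array, against 167 of 25989 (0.643%) of the others. The 221 probes at least 2-fold brighter in Cy3 on every array had a median of 35% G and C. The part of base content in following the dye was not tested. The first 30 of 60 bases follow for the probes of this comparison, with G and C in capitals, since the probes differ in these letters.
Cdk1, dye-following probe (chr10:68801053-68801112, mm9, minus strand): aaCttaattaaCatGtaaatattattCCat
Cdk1, the third probe: ataCaCtaaaaatttGGGtaGCCaGGaGGt
Aurkb, dye-following probe (chr11:68865105-68865164, mm9, plus strand): ttCaGaaaaattatGaaGaaCaaCatttta
With a dye term in the model, the mean ratio of Aurkb was -0.27 and that of the brightest Cdk1 probe 0.04. The third Cdk1 probe was also brighter in Cy3 on every array, but by log2 ratios of only 0.22, 0.03 and 0.50. Over all kept member probes, 13 were brighter in Cy3 on every array and 11 in Cy5.

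**Figure D4:**
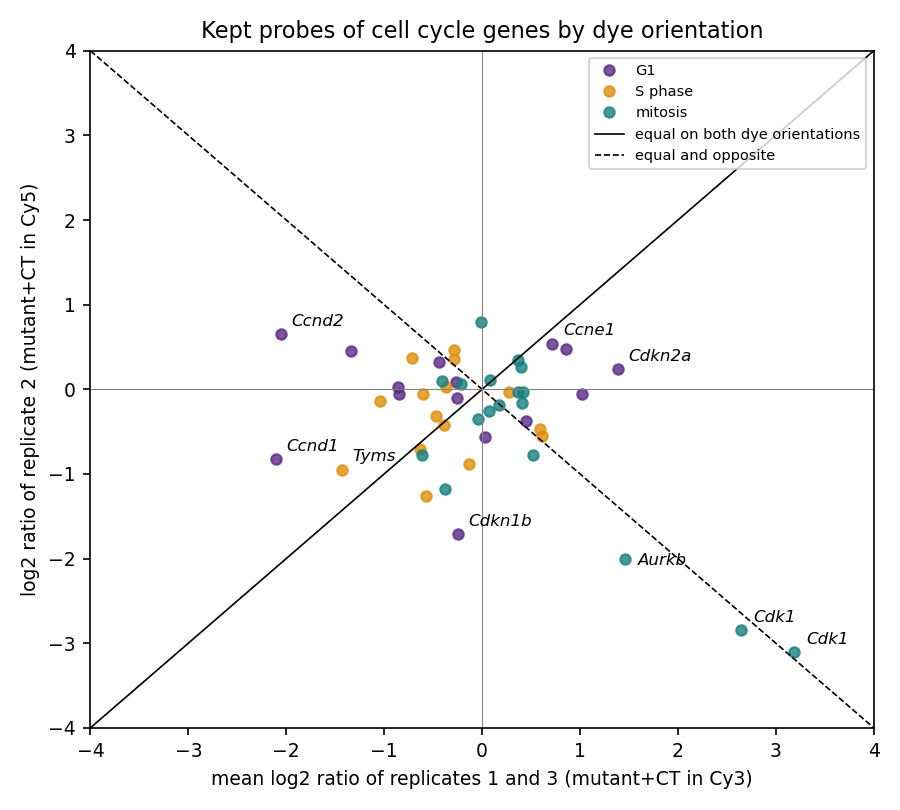
Mean log2 ratio of mutant+CT over wild type on replicates 1 and 3, with mutant+CT in Cy3 (x axis), against the ratio on replicate 2, with mutant+CT in Cy5 (y axis), 1 point for each of the 48 kept member probes, coloured by phase. Points on the solid line have equal ratios in both dye orientations; the dye-following Cdk1 and Aurkb probes lie near the dashed line of equal and opposite ratios, with -3.11, -2.85 and -2.00 on replicate 2.

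Other genes of the same pathways, taken from lists of 25 G1, 42 S phase and 32 mitotic genes, were read for comparison. Of these, 24, 41 and 32 were tested, none passed limma's test at an adjusted p under 0.05, and the median log2 ratios were 0.10, -0.05 and -0.05. Higher and lower on every array were 3 and 3 of the G1 genes, 5 and 9 of the S phase genes, and 8 and 4 of the mitotic genes. The other S phase genes thus had a median nearer to 0 than the 13 tested members, a difference that was not tested. The genes named next were among those with the smallest p of each list in each direction.

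In G1, Cdkn1c, the Cdk inhibitor p57Kip2, read 1580, 2419 and 1234 in mutant+CT, against 7355, 11469 and 13095 in wild type. It was at least 2-fold lower on every array without overlap (log2 ratio -2.62 ± 0.68, limma adjusted p = 0.0845), the smallest p of these lists. Ccnh, the cyclin of the Cdk-activating kinase, had a log2 ratio of -1.02 ± 0.54 (limma adjusted p = 0.199). Fbxw7, which targets cyclin E for degradation, had 1.01 ± 0.77 (limma adjusted p = 0.262), and Cdkn2b, the neighbour and relative of Cdkn2a that encodes p15Ink4b, gave 1.46, 0.03 and 2.93 (limma adjusted p = 0.301). The G1 inhibitors of these lists thus stood on both sides of 0.

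In S phase, Prim2, a subunit of the primase, read 829, 1058 and 2665 in mutant+CT, against 129, 279 and 223 in wild type (log2 ratio 2.73 ± 0.83, limma adjusted p = 0.0846), but its other probe had a mean of only 0.78. Rfc3, of the clamp loader, had a log2 ratio of -0.63 ± 0.30 (limma adjusted p = 0.293) and Mcm10, of the replication fork, 0.42 ± 0.25 (limma adjusted p = 0.461).

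In mitosis, Mybl2, the B-Myb factor that activates late cell cycle genes, read 14630, 34129 and 48576 in mutant+CT, against 9036, 12574 and 12229 in wild type (log2 ratio 1.38 ± 0.65, limma adjusted p = 0.149). That probe was higher on every array, but the second probe gave -0.12, 1.25 and 2.08, lower in mutant+CT on replicate 1. Cdc25b, the phosphatase that activates Cdk1, read 928, 1247 and 1246 in mutant+CT, against 2135, 1632 and 3135 in wild type (log2 ratio -0.97 ± 0.51, limma adjusted p = 0.203). Kif14, a motor of cytokinesis, had a log2 ratio of 0.73 ± 0.51 (limma adjusted p = 0.305) and Foxm1, a factor for mitotic genes, -0.46 ± 0.40 (limma adjusted p = 0.464).

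Markers of 5 cell types were read for comparison, of which Nppa of the cardiomyocyte list alone was not tested. Both conditions were embryoid bodies, so ratios between them do not check that label. Visceral endoderm markers had a median log2 ratio of 1.12, with 7 of 8 higher in mutant+CT on every array. Apoa1 of that list, an apolipoprotein, had a log2 ratio of 2.12 ± 0.58 (limma adjusted p = 0.0876). Cardiomyocyte markers had medians of 3.78, -0.87 and -0.73 on replicates 1 to 3 and mesenchyme markers 4.54, -2.16 and 0.12. Myh6, a heart myosin, had the smallest p of the cardiomyocyte list (limma adjusted p = 0.365) and Thy1 that of the mesenchyme list (log2 ratio 1.14 ± 1.15, limma adjusted p = 0.330). Heart and mesenchyme markers thus differed in direction between arrays, and their part in the ratios of the cell cycle genes was not tested.

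The promoters of the members differed by phase in 3 short motifs. RefSeq promoters of GRCm38.p6, from 250 bases before to 50 after the start of each gene, were at hand for 30 of the 38 members and for 27025 genes in all. The E2F-type motif GCGGGAA was found on either strand in 2 of 8 G1, 5 of 12 S phase and 0 of 10 mitotic members, beside 5.29% of all genes. The NF-Y motif CCAAT was in 4 of 8, 8 of 12 and 9 of 10, beside 41.1% of all genes. The cell cycle homology motif TTTGAA, known from promoters of late cell cycle genes, was in 0 of 8, 1 of 12 and 8 of 10, beside 20.2% of all genes. Each motif was counted whether or not its match overlapped another, a match is not a site, and no match says only that these letters are not in this window. The mitotic members higher on every array, Kif11, Aurka and Plk1, all hold CCAAT and TTTGAA, but so do Mki67 and Top2a, whose mean ratios were below 0. Tyms holds none of the 3 motifs.

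The 150 bases before the start are printed, with motif matches in capitals, for Tyms, the member with the smallest p, and for Rrm1 and Cdc20, chosen after their letters were seen to show an S phase and a mitotic arrangement.
Tyms (chr5:30073626-30073775, GRCm38.p6, minus strand): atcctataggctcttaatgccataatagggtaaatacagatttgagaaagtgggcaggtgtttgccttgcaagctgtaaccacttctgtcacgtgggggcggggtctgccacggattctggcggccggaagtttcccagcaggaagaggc
Rrm1 (chr7:102441545-102441694, GRCm38.p6, plus strand): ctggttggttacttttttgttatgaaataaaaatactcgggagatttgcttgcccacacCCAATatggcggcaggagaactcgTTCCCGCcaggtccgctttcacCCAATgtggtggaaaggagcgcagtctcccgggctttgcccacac
Cdc20 (chr4:118437344-118437493, GRCm38.p6, minus strand): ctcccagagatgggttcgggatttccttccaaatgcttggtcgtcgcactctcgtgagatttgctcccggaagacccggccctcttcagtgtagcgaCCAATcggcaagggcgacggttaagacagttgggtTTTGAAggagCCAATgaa
Rrm1 shows CCAAT on each side of the E2F-type motif, here as its reverse complement, and Cdc20 shows TTTGAA between CCAAT matches. Their log2 ratios were -0.42 and 0.25, and neither passed the test.

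**Figure D5:**
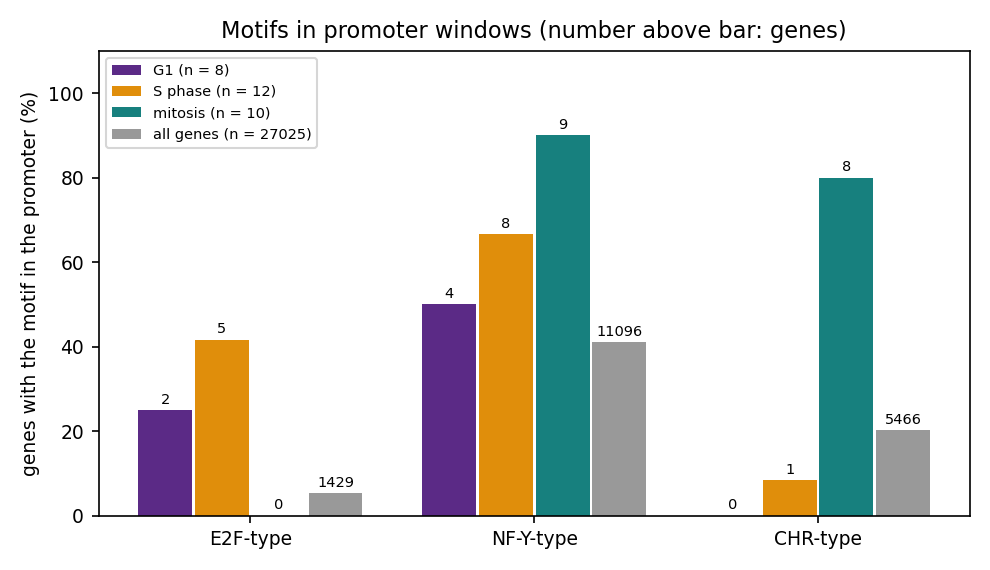
Percent of promoters (250 bases before to 50 after the start) that hold each motif on either strand, for G1, S phase and mitotic members and for all 27025 genes. The E2F-type motif is at 41.7% in S phase members against 5.29% of all genes, and the CHR-type motif (TTTGAA) at 80% in mitotic members against 20.2%.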

How the data were processed

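RNA of 3 biological replicates of each condition was read on 3 Agilent 2-colour arrays. The deposited scanner files hold spot intensity values in Cy3 and Cy5 with local background; the scanner software, per the file headers, was Agilent Feature Extraction (version 10.7.3.1). A deposited log10 ratio (Cy5 over Cy3) in these files served only to settle directions. The deposited table holds log2 ratios normalized by the authors, with limma per the submitters' processing notes; its exact steps are unknown. Its column medians were -0.02, 0.01 and -0.01, its direction was mutant+CT over wild type, and it correlated with the ratios computed here with r = 0.996, 0.997 and 0.998.

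Background correction used normexp (offset 50) and dye normalization used loess within arrays, with control spots at weight 0 (limma 3.58.1, statmod 1.5.0, R 4.3.3). Outlier spots, 454, 234 and 507 by replicate, were left out. The labelled dyes gave each ratio its direction, mutant+CT over wild type. A probe was kept when well above background on all 3 arrays in mutant+CT or in wild type (26317 of 39429), and a gene was its brightest kept probe. Names came from RefSeq (GRCm38.p6) by accession for 30693 of 43020 spots and otherwise from the files. Positions are the files' mm9 coordinates; exon and UTR places were not analysed here. Each mean ratio was set against 0 by limma's moderated test with Benjamini-Hochberg adjustment over 20389 genes, or over all kept probes where said. Array number limits precision. The steps were tested on simulated data. Tables and figures used Python 3.11.15, pandas 2.3.3 and matplotlib 3.10.9.

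Members, lists and tests were chosen with earlier results of these data known. Full statistics went to the 3 members of each phase with the smallest p, to 2 genes in each direction of each pathway list, again by p, to 1 gene of each cell type list and to Dido1; other members are named with shorter values, and those given in full beyond this rule were chosen after their values were seen. The result of 1 gene that this rule names is not reported here.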

Additional observations from a re-analysis of the deposited data

How the results depend on the processing

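The fit was repeated under 15 other settings, 2 of them chosen after seeing the data. No member passed an adjusted p under 0.05 under any of them; the smallest was 0.0878, for Tyms with arrays scaled to the same spread. The reported test is already paired, since each array sets 1 mutant+CT RNA against 1 wild-type RNA and its ratio is the unit tested. Over all genes there were 0 calls as reported, 286 with Agilent's processed signals, 12 with probes above background in both conditions and 176 with a trended and robust variance prior, and ranged from 0 to 196 when 1 replicate was left out (196 without replicate 1). Genes that differed 2-fold or more on all arrays numbered 589, 1201 with processed signals, and 774 to 1537 with 1 replicate left out. Members at least 2-fold apart numbered 0, 1 with processed signals, 1 with scaled arrays, and 0 to 5 with 1 replicate left out (5 without replicate 2). The S phase median of -0.35 was -0.19 with no filter, -0.19 with outlier probes judged on the other arrays, -0.17 with a dye term, -0.29 without Gmnn (also chosen after seeing the data) and -0.37 to -0.15 with 1 replicate left out. The mitotic median of 0.09 was -0.0059 with a dye term and -0.021 without replicate 3.

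Of 509 pairs of member and setting, 488 kept the direction, and 10 members changed sign in 21. The 488 include pairs whose ratio the setting could not change, such as all those of the trended and robust variance prior. With the mean of all kept probes, Ccnd3 was 0.0040, Cdc6 -0.29 and Ccnb1 0.15. With a dye term, Mcm6 was 0.033, Mcm7 0.091, Aurkb -0.27 and Birc5 -0.0059. Mcm3 was -0.011 with no filter and with outlier probes judged on the other arrays, and Birc5 -0.023 in the deposited table. With 1 replicate left out, Ccnd3 lay between -0.32 and 0.033, Cdk2 between -0.44 and 0.16, Mcm6 between -0.29 and 0.11, Mcm7 between -0.28 and 0.10, Ccnb1 between -0.21 and 0.074, Aurkb between -0.48 and 1.46, Cdc20 between -0.014 and 0.42, and Birc5 between -0.021 and 0.17. The cause was not tested. Ccnd1 stayed between -2.10 and -0.91, Ccne1 between 0.61 and 0.72, Cdkn2a between 0.55 and 1.39, Tyms between -1.43 and -1.09 and Tk1 between -0.80 and -0.54. With 3 arrays, the 95% interval reached beyond a 2-fold change for the members outside the 17 counted above.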
